A study of Arabidopsis thaliana with 8 samples.

Results

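Cysteine-rich receptor-like kinases (CRKs) were examined in Arabidopsis thaliana through 41 loci, out of 26716 loci that had a probe on the array. The loci form a gene family list, but it was selected on the changes between the groups seen in an earlier look at these same arrays, so the members' values are given as a description. Of the 41 loci, 19 lie in a tandem cluster on chromosome 4 between AT4G23130 and AT4G23320, and 22 lie elsewhere. All 41 loci are CRK genes by name, and the RefSeq gene table lists CRK1 as RKF2, CRK17 as EMB1290 and CRK45 as ARCK1.

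CRKs are one of the largest families of plant receptor-like kinases. A typical member has an extracellular region with DUF26 domains, which carry conserved cysteines, a single membrane span and an intracellular serine/threonine kinase domain. For most members no ligand is known. Many CRK genes are induced by pathogens, microbial patterns, salicylate and reactive oxygen species, and several members act in cell death, in the oxidative burst or in stress hormone responses. Family members often lie side by side in the genome as products of local duplication.

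Signals came from 8 single-colour Agilent arrays of whole seedlings in the Col-0 background, 4 per group. Both groups shared a pretreatment of 14 days on brassinazole (1 µM), which blocks brassinosteroid synthesis. The mutant group, bil1-1D/bzr1-1D, carries a dominant allele of the brassinosteroid-responsive transcription factor BZR1 and was then treated for 3 hours with the brassinosteroid brassinolide (1 µM). The wild-type group received the solvent DMSO for 3 hours. Genotype and treatment therefore changed together. The 4 mutant arrays lay on 1 slide and the 4 wild-type arrays on another, each slide with its own scan, so genotype, treatment, slide and scan cannot be told apart.

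A level is the log2 of a signal relative to the 75th percentile of its array, and levels of different probes are not set against each other. A change is the log2 level of the brassinolide-treated mutant minus that of the solvent-treated wild type, with its SE from limma, a linear model fitted to all genes. A gene is said to have risen or fallen where limma's Benjamini-Hochberg adjusted p over 22102 genes was under 0.05. The labels do not say whether replicates were grown separately, so the p-values reflect only how far these arrays differ, which may be technical variation. In whole seedlings, fewer cells of a type and less RNA per cell cannot be told apart.

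The mutant arrays were dimmer, with a 75th percentile of 3033 to 3821 intensity units against 4638 to 6153 for the wild type. Well above background were 74.5% to 75.8% of their spots, against 79.5% to 80.6%. Across genes, arrays of the same group correlated with Pearson's r of 0.990 to 0.997 and arrays of different groups with 0.967 to 0.976. As a check of the contrast, 5 brassinosteroid genes were read, which cannot tell an effect of brassinolide from one of genotype. DWF4, an enzyme gene of brassinosteroid synthesis that brassinosteroids repress, had a change of -6.05 ± 0.11. BAS1, which encodes a brassinosteroid-inactivating enzyme, had one of 3.01 ± 0.09. CPD and BRI1 fell as well and BZR1 rose, so all 5 genes of this check were called, where 55.9% of all genes were. The 3 green tissue markers and 5 root markers were well above background on all 8 arrays.

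Of the 41 CRK genes, 38 were well above background on all 8 arrays and were tested. No member passed that detection limit on every array of 1 group and on fewer arrays of the other. CRK32 was not well above background on any array. CRK33 was detected on 0 mutant and 2 wild-type arrays, and CRK1 on 1 mutant and 2 wild-type arrays, so none of these 3 has a change. All 3 lie outside the tandem cluster.

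More CRK genes were higher than lower in the brassinolide-treated mutant. Among the 38 tested genes, 23 rose, 2 fell and 13 did not pass the threshold. Among all genes tested, 55.9% passed, with 30.2% higher and 25.7% lower in the mutant. At least 2-fold changes were found for 8 CRK genes that rose, CRK20, CRK16, CRK23, CRK6, CRK10, CRK41, CRK38 and CRK15, and for 1 that fell, CRK39. The shares of all genes past that size were 3.08% upward and 5.02% downward. Every mutant array lay above every wild-type array for 20 CRK genes and below for 1, CRK39, while 28.2% and 24% of all genes did so. The median change was 0.56 over the 38 members and 0.03 over all genes. These counts describe members chosen with the contrast known and are no test of the family.

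**Figure D1:**
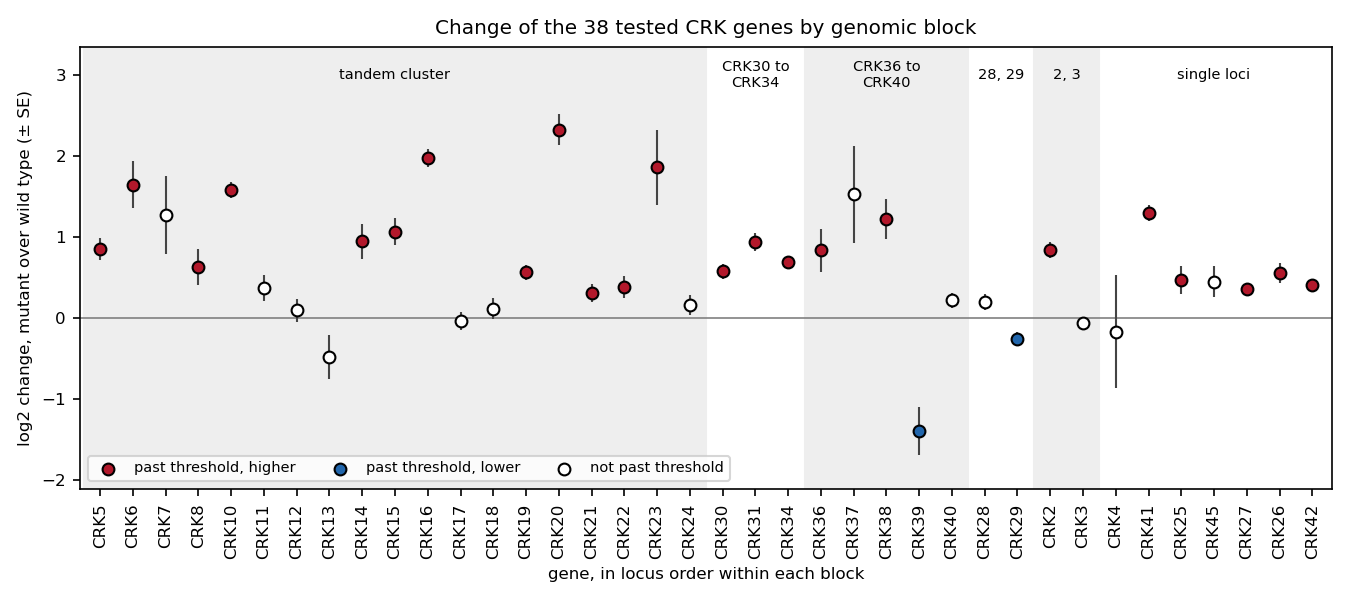
Log2 change of each of the 38 tested CRK genes (points, bars are SE) in locus order within each genomic block; red points rose, blue points fell and open points did not pass the threshold. The tandem cluster runs from -0.47 for CRK13 to 2.33 for CRK20, and the widest span within another block is from -1.39 for CRK39 to 1.53 for CRK37, which did not pass.

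The tandem cluster and the rest of the family both leaned upward, and their ranges overlapped. In the cluster all 19 genes were tested, of which 12 rose, 0 fell and 7 did not pass, with a median change of 0.63. At an unadjusted limma p under 0.05 the cluster also had 0 genes that fell, against 14 that rose. The shares of all genes at that looser limit were not counted. They are at least the 30.2% higher and 25.7% lower that passed after adjustment. Outside it 19 genes were tested, of which 11 rose, 2 fell and 6 did not pass, with a median of 0.48. Changes of at least 2-fold upward numbered 6 in the cluster and 2 outside it. The difference between the blocks was not tested, since genes are not replicates and members share sequence. Without wild-type replicate 3 the order of the medians turned, to 0.49 in the cluster against 0.59 outside it.

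Within the cluster, the gene with the largest change was CRK20 (AT4G23280). CRK20 is known as a gene whose induced expression triggers cell death and whose loss lowers growth of Pseudomonas in leaves. Its levels were -0.37, 0.27, 0.23 and -0.13 on mutant replicates 1 to 4 and -2.07, -2.17, -2.75 and -2.33 on wild-type replicates 1 to 4. The groups did not overlap, and the change of 2.33 ± 0.19 is a 5.02-fold higher mean. CRK19 (AT4G23270), another member whose induced expression triggers cell death, lies next to CRK20 but for one short untested locus, AT4G23271. CRK19 rose by 0.57 ± 0.09, again with all mutant arrays above all wild-type arrays, although it did not pass the threshold under spike-in scaling, where its change was 0.45.

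CRK13 (AT4G23210), whose overexpression gives hypersensitive cell death and salicylate-dependent defence, did not share that direction. It stood at -1.53, -1.93, -2.12 and -1.39 on the mutant arrays and at -0.75, -1.41, -1.93 and -1.0 on the wild-type arrays. The groups overlapped and the change of -0.47 ± 0.27 did not pass the threshold. The lowest wild-type value was that of replicate 3, without which the change was -0.69 and passed. CRK13 was 1 of 2 cluster genes with a negative change on the brightest probe. The other was CRK17, whose second probe had a change of 1.18 and which rose by 0.57 with the mean of its probes.

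CRK6 (AT4G23140) and CRK7 (AT4G23150) are neighbours known to protect against extracellular reactive oxygen species. CRK6 had levels of 2.25, 2.74, 3.09 and 2.24 in the mutant and 1.37, 1.29, 0.27 and 0.79 in the wild type. The mutant arrays were all higher, by 1.65 ± 0.29 or 3.14-fold on average, and wild-type replicate 3 was the lowest array. CRK7 stood at -1.80, -0.86, -0.56 and -1.16 in the mutant and at -1.35, -3.12, -1.72 and -3.28 in the wild type. Wild-type replicates 1 and 3 fell inside the mutant range, so the groups overlapped and the change of 1.27 ± 0.48 did not pass the threshold. CRK7 passed in 10 of 20 alternatives, and single arrays were enough to change its call: without wild-type replicate 1 the change was 1.61, without wild-type replicate 3 it was 1.49 and without mutant replicate 1 it was 1.51, and each of these passed.

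CRK5 (AT4G23130), the first gene of the cluster, is one whose overexpression raises resistance to bacterial infection. Its levels were 0.87, 1.16, 1.08 and 0.94 in the mutant against 0.29, 0.37, -0.27 and 0.24 in the wild type. The groups did not overlap, and CRK5 rose by 0.86 ± 0.14. CRK10 (AT4G23180), of which a gain-of-function allele disturbs xylem vessels, had an SE among the smallest of the genes past 2-fold. It stood at 1.86, 2.09, 2.1 and 1.87 in the mutant and at 0.58, 0.50, 0.23 and 0.28 in the wild type. No array came near the other group, and the change was 1.58 ± 0.10, or 2.99-fold.

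The other large changes in the cluster belong to genes without a role given here. CRK16 (AT4G23240) had levels of -2.57, -2.30, -2.11 and -2.46 in the mutant and -4.23, -4.30, -4.29 and -4.52 in the wild type, a change of 1.98 ± 0.11. CRK23 (AT4G23310) had levels of -3.58, -2.56, -1.92 and -3.56 in the mutant and -3.89, -4.66, -5.06 and -5.48 in the wild type, a change of 1.86 ± 0.46. For both genes all mutant arrays were higher, but for CRK23 the gap between mutant replicate 1 and wild-type replicate 1 was small and the spread within groups wide. With normexp background correction at an offset of 50 neither passed the threshold, and their changes shrank to 0.63 and 0.16.

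CRK14 (AT4G23220) and CRK15 (AT4G23230) are adjacent. CRK14 stood at 1.73, 2.20, 2.18 and 1.84 in the mutant and at 1.33, 1.22, 0.39 and 1.19 in the wild type, and CRK14 rose by 0.96 ± 0.22. CRK15 stood at 0.06, 0.37, 0.45 and 0.12 in the mutant and at -0.57, -0.68, -1.31 and -0.72 in the wild type, and CRK15 rose by 1.07 ± 0.17. In both genes the groups did not overlap, and wild-type replicate 3 was well under the other wild-type arrays.

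**Figure D2:**
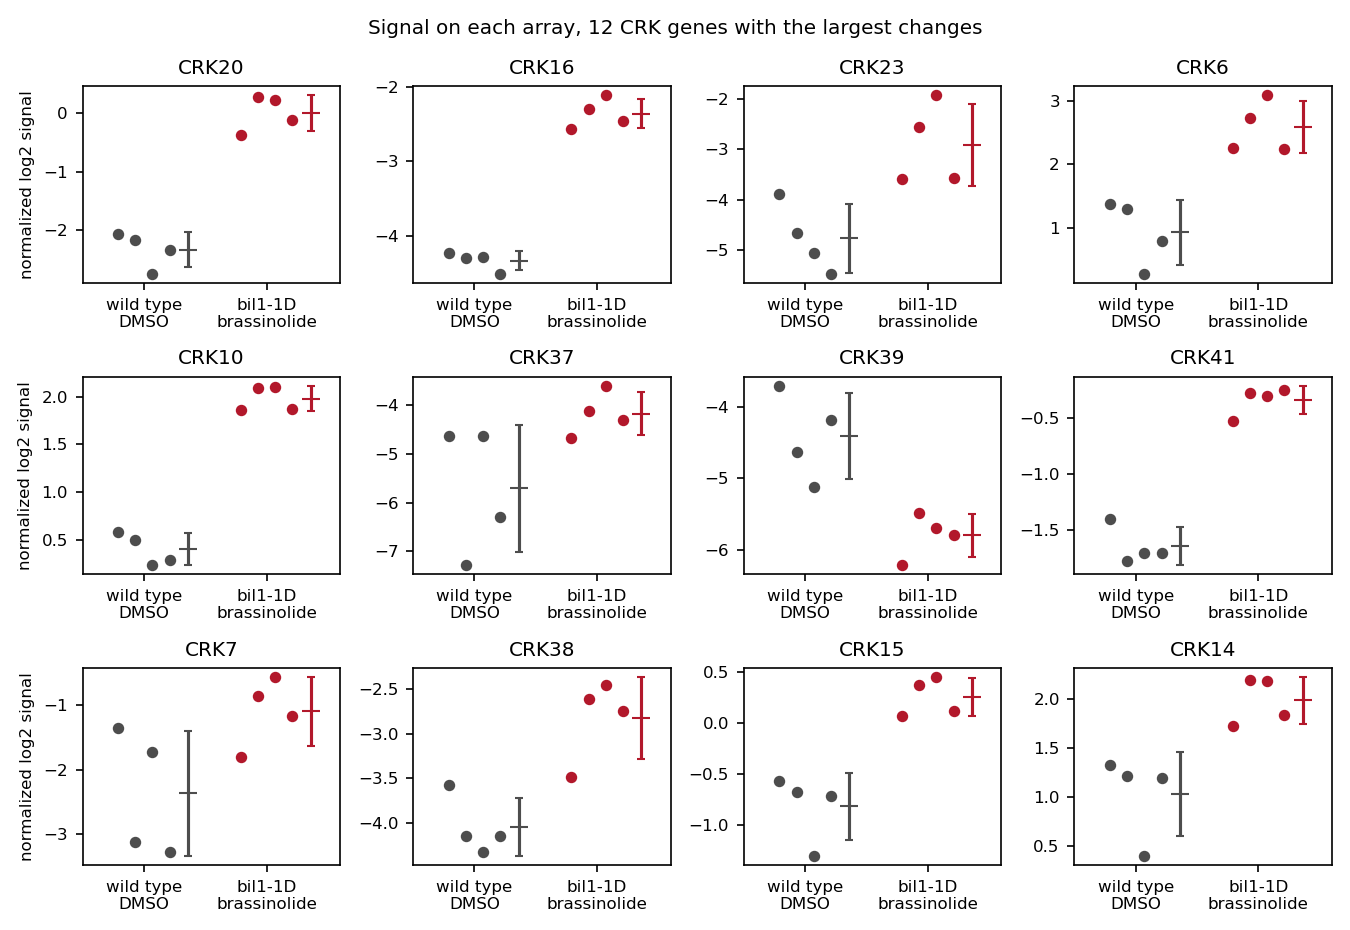
Normalized log2 signal on each array (points, replicates 1 to 4 from left) for the 12 CRK genes with the largest changes, with the mean and SD (n = 4) of each group beside them; vertical scales differ between panels. The groups overlap for CRK7 and CRK37, CRK39 is lower in the mutant, and the other 9 genes have every mutant array above every wild-type array.

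Of the remaining cluster genes, CRK8, CRK21 and CRK22 rose by 0.63, 0.31 and 0.39, with overlapping groups for CRK8 and CRK22. CRK11, CRK12, CRK17, CRK18 and CRK24 had changes of -0.03 to 0.38 that did not pass the threshold. For CRK11 every mutant array was nevertheless above every wild-type array. Along the chromosome, 3 consecutive genes that did not pass, CRK11 to CRK13, stand between CRK10 and CRK14, which both rose.

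Other genes lie within and beside the cluster. EP1 (AT4G23170), which lies between CRK8 and CRK10 and is also known as CRK9 but is not among the 41 loci, rose by 1.20 ± 0.16 (limma adjusted p = 5.2e-04), with all mutant arrays higher. Of the 10 loci that flank the cluster, 5 on each side, only GSH1 and AT4G23340 were tested. GSH1, which encodes the first enzyme of glutathione synthesis, had a change of -1.11 ± 0.06 (limma adjusted p = 5.6e-06), and AT4G23340 one of 0.19 ± 0.13 that did not pass.

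Outside the cluster, CRK2 (AT1G70520) phosphorylates the NADPH oxidase RBOHD and promotes the oxidative burst. Its levels were 3.42, 3.60, 3.64 and 3.27 in the mutant and 2.61, 2.69, 2.50 and 2.76 in the wild type. The groups were apart, and CRK2 rose by 0.85 ± 0.10. Its neighbour CRK3 (AT1G70530) had a change of -0.06 ± 0.06 that did not pass on its brightest probe. Its second probe had a change of -0.44 ± 0.11 with all mutant arrays lower, and the mean of both probes, -0.25, passed. RBOHD itself had a change of 0.08 ± 0.14 and did not pass either.

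CRK36 (AT4G04490) and the cytoplasmic kinase CRK45 (AT4G11890, ARCK1) interact and dampen responses to abscisic acid. CRK36 stood at -2.14, -1.11, -0.87 and -1.66 in the mutant and at -2.05, -2.22, -2.34 and -2.52 in the wild type. Mutant replicate 1 fell inside the wild-type range, and CRK36 rose by 0.84 ± 0.26. Its call was lost without any one of mutant replicates 2 and 3 (0.73 and 0.65) or wild-type replicates 2, 3 and 4 (0.86, 0.82 and 0.76). CRK45 stood at 1.5, 1.78, 2.0 and 1.51 in the mutant and at 1.64, 1.40, 0.83 and 1.12 in the wild type. The groups overlapped through wild-type replicate 1, and the change of 0.45 ± 0.19 did not pass, whereas without that array it was 0.59 and passed. Its other probes had changes of 0.55 ± 0.18 and 0.69 ± 0.19, and the mean of the 3 probes, 0.56, passed.

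CRK28 (AT4G21400), which associates with the flagellin receptor FLS2 and its co-receptor BAK1, stood at 0.64, 0.97, 0.82 and 0.98 in the mutant and at 0.61, 0.62, 0.51 and 0.87 in the wild type. The groups overlapped and the change of 0.20 ± 0.10 did not pass, while it was 0.27 and passed both without mutant replicate 1 and without wild-type replicate 4. Its neighbour CRK29 (AT4G21410) fell by 0.25 ± 0.08 with overlapping groups. The CRK29 call was lost in 7 of the 8 fits that left out 1 array, all but that without wild-type replicate 3.

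CRK4 (AT3G45860) belongs with CRK5, CRK19 and CRK20 to the genes whose induced expression triggers cell death. Its levels were -3.78, -2.73, -2.30 and -3.97 in the mutant and -1.76, -4.36, -1.90 and -4.10 in the wild type. The wild-type arrays split into replicates 1 and 3, which were above every mutant array, and replicates 2 and 4, which were below every one. The change of -0.17 ± 0.70 has an SE several times its size and gives no direction: it was 0.26 without wild-type replicate 1 and 0.21 without wild-type replicate 3, and 0.03 and 0.09 without mutant replicates 1 and 4.

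The block of CRK36 to CRK40 held both the gene that fell most and a gene with one of the widest spreads. CRK39 (AT4G04540) stood at -6.22, -5.49, -5.70 and -5.79 in the mutant and at -3.71, -4.63, -5.13 and -4.19 in the wild type. All mutant arrays were lower, and CRK39 fell by 1.39 ± 0.30 on the log2 scale, or 2.62-fold. Its neighbours went the other way or had no call. CRK38 (AT4G04510) stood at -3.48, -2.61, -2.45 and -2.75 in the mutant and at -3.57, -4.14, -4.32 and -4.14 in the wild type. The groups did not overlap, though mutant replicate 1 and wild-type replicate 1 nearly met, and CRK38 rose by 1.22 ± 0.25. Under normexp with an offset of 50 its change turned to -0.23.

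CRK37 (AT4G04500) stood at -4.68, -4.12, -3.60 and -4.29 in the mutant and at -4.64, -7.28, -4.62 and -6.29 in the wild type. Wild-type replicates 1 and 3 fell inside the mutant range and replicates 2 and 4 far below it. The change of 1.53 ± 0.60 did not pass the threshold; without wild-type replicate 1 or 3 it was 1.89 and 1.90 and passed, and under normexp with an offset of 50 it was -0.96. CRK40 had a change of 0.22 ± 0.10 that did not pass, against 0.28 without wild-type replicate 1, which did.

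CRK41 (AT4G00970) stood at -0.53, -0.28, -0.30 and -0.25 in the mutant and at -1.40, -1.77, -1.70 and -1.70 in the wild type. The groups were far apart relative to their spread, and CRK41 rose by 1.30 ± 0.10, or 2.47-fold. In the block of CRK30 to CRK34, the 3 tested genes CRK30, CRK31 and CRK34 rose by 0.58, 0.94 and 0.69, each with all mutant arrays above all wild-type arrays. Among the other single loci, CRK25, CRK26, CRK27 and CRK42 rose by 0.37 to 0.56. Groups overlapped for CRK25 and not for the other 3.

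Several calls depended on single arrays. Leaving out 1 array at a time, the number of CRK genes that rose lay between 18, without mutant replicate 2, and 26, without wild-type replicate 1. Over all genes, 6214 of 22114 rose in the former fit and 6379 of 22161 in the latter. The call was lost in 7 of these 8 fits for CRK22, in 6 for CRK21 and for CRK25, and in 4 for CRK8. It was kept in all 8 for the 8 genes that rose at least 2-fold and for CRK2, CRK5, CRK14, CRK19, CRK26, CRK27, CRK30, CRK31, CRK34 and CRK42.

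Of the scalings and background corrections, quantile and median scaling and normexp on negative controls left the number that rose at 25 or 26. That is within the range of the fits without 1 array. Over all genes, 7514, 7915 and 7065 rose in these, in that order, against 6678 as reported. The authors' value table gave 27 CRK genes that rose, above that range, where 7562 of all genes rose. Spike-in scaling and normexp with an offset of 50 took the number of CRK genes below the range. Scaling to the spike-in probes shifted the median of all genes by -0.12, and 16 CRK genes rose and 1 fell, where 6.41% of all genes rose and 13.4% fell. Normexp with an offset of 50 shifted it by -0.20, and 11 CRK genes rose and 1 fell, where 18% of all genes rose and 23% fell. The median change of the CRK genes stayed above that of all genes in both, at 0.45 against -0.08 and at 0.23 against -0.17. Under normexp 4 genes that had risen turned negative, CRK26, CRK27, CRK31 and CRK38.

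**Figure D3:**
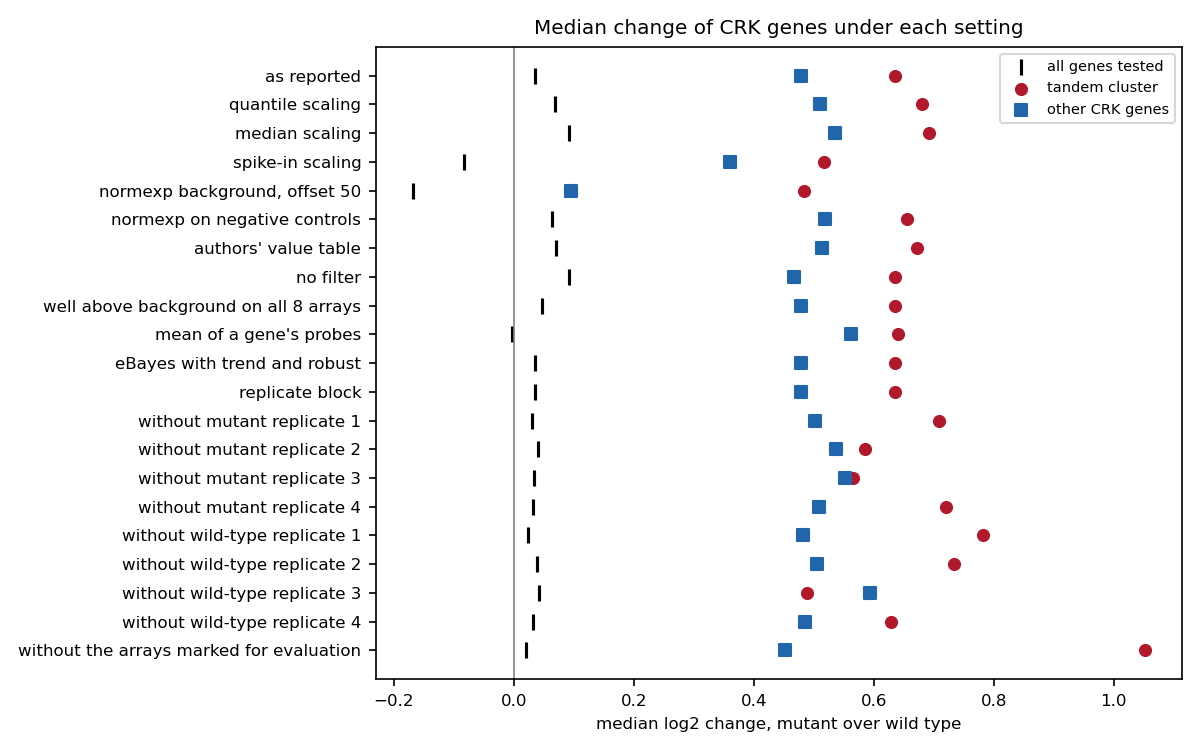
Median log2 change of the 19 tested cluster genes (circles), the 19 tested other CRK genes (squares) and all genes tested (bars) under the reported processing and 20 alternatives. Both CRK medians lie above the median of all genes in each row, and they lie closest to each other without mutant replicate 3.

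CRK levels varied between arrays of 1 group more than those of most genes. The median within-group SD over the CRK genes was 0.16 in the mutant and 0.25 in the wild type, and 0.18 and 0.30 in the tandem cluster, against 0.09 and 0.12 over all genes. Wild-type replicate 3 was the lowest wild-type array for 26 of 38 CRK genes and for 16 of 19 cluster genes, but for 26.1% of all genes. Wild-type replicate 1 was the highest for 24 CRK genes and for 16 of 19 cluster genes, but for 25.2% of all genes. In the mutant, replicate 1 was the lowest array for 21 of 38 CRK genes, against 25.8% of all genes.

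The other lists shared some of these ranks and not others, and whether they varied together was not tested. Of 17 receptor and kinase genes of pattern-triggered immunity, wild-type replicate 3 was the lowest wild-type array for 16 and replicate 1 the highest for 13, but mutant replicate 1 was the lowest mutant array for 5. Wild-type replicate 1 was also the highest for 13 of 15 salicylate genes and 8 of 9 WRKY and TGA factor genes, of which wild-type replicate 3 was the lowest for 4 and 5. Mutant replicate 1 was the lowest for 10 of the former and 1 of the latter. The 8 genes of the plasmodesmata-located proteins differed, with wild-type replicate 1 the lowest for 5 and highest for 1. For these 8 genes wild-type replicate 3 was the highest for 5 and the lowest for 0. In the 8 tested respiratory burst oxidase genes, wild-type replicates 1 and 3 were each the highest for 3 and the lowest for 3. Tissue markers differed between arrays of both groups. All 3 green tissue markers were highest on wild-type replicate 3 and lowest on wild-type replicate 1, and all 5 root markers were lowest on wild-type replicate 1. Among the mutant arrays, all 3 green markers were highest on replicate 3 and all 5 root markers lowest on replicate 2. The mean level over the 3 green markers was 3.62 to 3.87 on the mutant arrays and 3.67 to 4.08 on the wild-type arrays, and over the 5 root markers 0.083 to 0.87 and 0.40 to 0.85, with no marker at the floor. The groups overlapped for 2 of the 3 green markers and 4 of the 5 root markers. Among all genes, 28.2% had every mutant array above every wild-type array and 24% had every one below. RBCS1A had a change of 0.18 ± 0.06 (limma adjusted p = 0.025), LHCB2.1 one of -0.46 ± 0.16 (limma adjusted p = 0.040) and PYK10 one of -0.43 ± 0.08 (limma adjusted p = 0.0022). The part of tissue makeup in the CRK changes was not tested.

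A different split set CRK4, CRK7 and CRK37 apart, which were high on wild-type replicates 1 and 3 and low on 2 and 4. The salicylate response genes PR1 and PR2, named after their values were seen, showed the same split. PR1 stood at 0.07, -3.05, -0.20 and -3.72 on wild-type replicates 1 to 4, and PR2 at 3.27, -0.06, 2.61 and 0.41. The rest of the 15-gene salicylate list was mixed. PR5 (1.99, 0.53, 1.08 and 0.37), EDS1, PAD4, SARD1, PBS3 and NPR4 also had wild-type replicates 1 and 3 highest. ICS1 (1.52, 1.0, 1.25 and 1.35) and EDS5 (3.05, 2.35, 2.27 and 2.76) did not. Nor did NPR1, NPR3, SAG101, CBP60G and NDR1. On the mutant arrays PR1 ranged from -0.55 to 0.49 and PR2 from 0.20 to 1.93. Neither PR1 (1.85 ± 0.86, limma adjusted p = 0.10) nor PR2 (-0.39 ± 0.78, limma adjusted p = 0.69) passed the threshold. The part of this split in the CRK values was not tested.

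**Figure D4:**
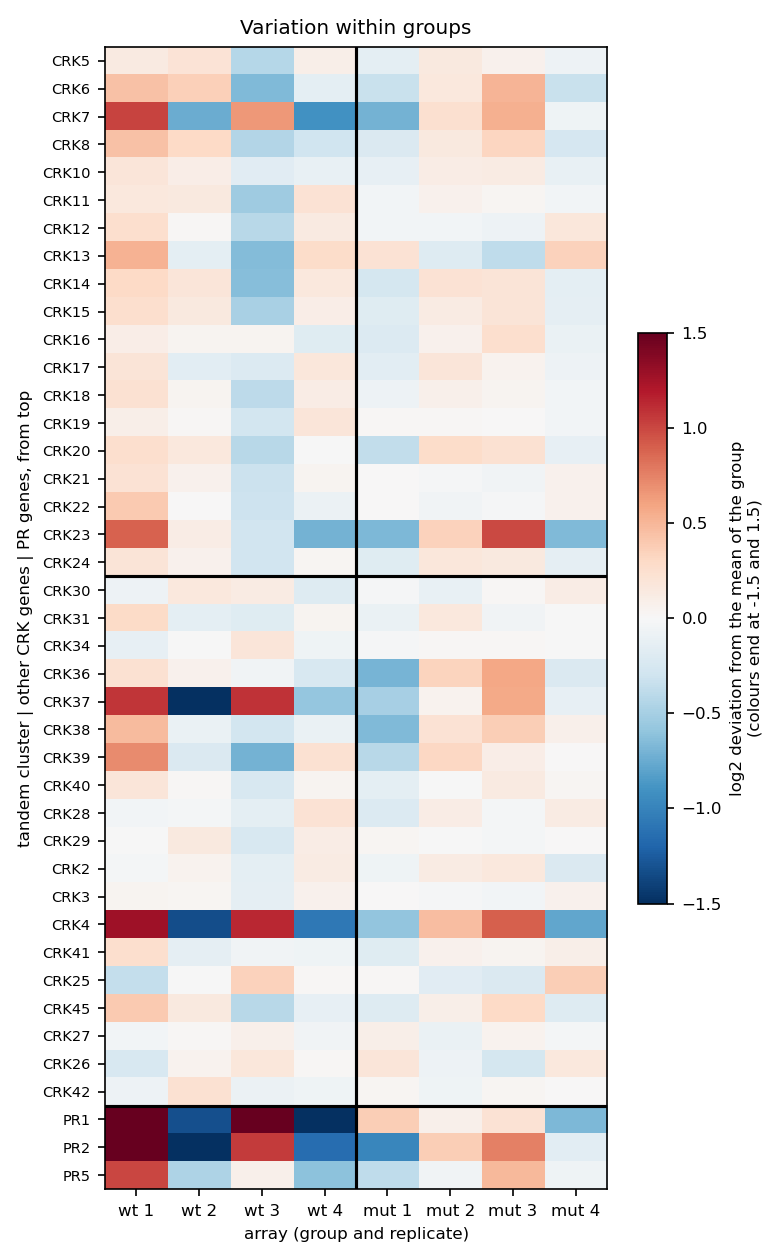
Deviation of each array from the mean of its group (log2; red above, blue below; colours end at -1.5 and 1.5) for the tested cluster genes, the other tested CRK genes and PR1, PR2 and PR5, on wild-type (wt) and mutant (mut) replicates 1 to 4. Most cluster genes are red on wild-type replicate 1 and blue on wild-type replicate 3, while CRK4, CRK7, CRK37, PR1 and PR2 are red on wild-type replicates 1 and 3 and blue on 2 and 4.

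For 12 CRK genes the array carried more than 1 probe, and the brightest tested probe was used. For 10 of them the probes differed by less than 0.5. The exceptions were CRK17, with -0.03 ± 0.12 on its brighter probe and 1.18 ± 0.15 on its dimmer one, and CRK15, with 1.07 ± 0.17 and 0.21 ± 0.20. The probes of CRK17, CRK18 and CRK40 had changes of opposite sign. Probe sequences were not used here, so a probe that also binds a near-identical copy cannot be told from a specific one, and the cluster values carry that uncertainty. The RefSeq table also has the CRK10 and CRK11 loci overlapping.

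Beside the shares of all genes given above, 30.2% that rose and 25.7% that fell, the counts of the related gene lists are a description. The plasmodesmata-located proteins (PDLPs) share the DUF26 domain with CRKs but have no kinase. Of their 8 genes 4 rose, led by PDLP1 at 0.53 ± 0.11 (limma adjusted p = 0.0046), and 0 fell, with a median change of 0.20. Again 0 fell at an unadjusted limma p under 0.05, a limit at which the shares of all genes were not counted. Of 17 receptor and kinase genes of pattern-triggered immunity, 7 rose and 5 fell, with a median of 0.04. MIK2, a receptor kinase for small secreted peptides, rose by 0.79 ± 0.14 (limma adjusted p = 0.0018), and EFR, the receptor for bacterial elongation factor Tu, had a change of -1.74 ± 0.13 (limma adjusted p = 2.9e-05). FLS2 and BAK1, partners of CRK28, had changes of -0.60 ± 0.08 (limma adjusted p = 4.7e-04) and -0.56 ± 0.08 (limma adjusted p = 8.5e-04).

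In the salicylate list 2 of 15 genes rose and 5 fell, with a median of -0.26, where 55.9% of all genes were called. The largest called changes were 0.74 ± 0.15 for the salicylate receptor gene NPR4 (limma adjusted p = 0.0043) and -0.89 ± 0.22 for the salicylate synthesis gene PBS3 (limma adjusted p = 0.0093). Of 9 WRKY and TGA factor genes 2 rose and 3 fell, with a median of -0.11. WRKY18 rose by 1.27 ± 0.10 (limma adjusted p = 4.3e-05), while its close relative WRKY40 had a change of -2.28 ± 0.19 (limma adjusted p = 4.7e-05). Of 8 tested respiratory burst oxidase genes, among 10 listed, 2 rose and 1 fell, with a median of 0.02. RBOHI rose by 0.83 ± 0.09 (limma adjusted p = 2.1e-04) and RBOHB had a change of -0.37 ± 0.07 (limma adjusted p = 0.0030).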

How the data were processed

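Spot intensities on a linear scale were deposited as Agilent Feature Extraction output. Per the file headers, the processed signal is background-subtracted without normalization between arrays, the software version is 11.5.1.1 and the array design 021169; version 9.1.3.1 stands in the submitters' processing notes. The authors' deposited value table is taken to be in natural log units, since its slope was 0.986 to 1.02 when set against the natural log of processed signals. Its columns hold identical sets of values (median -0.970), so it was quantile normalized. Its centring is unknown, and it served as an alternative.

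Of 43603 probes other than controls, 36163 matched 1 locus in the RefSeq gene table and 7440 none. Outlier spots (93 over all arrays) were removed, and 0 spots were saturated. Spots of a probe were averaged, divided by the array's 75th percentile, floored at 0.001 of it and converted to log2. A probe entered the test if every array of 1 group or of both had it well above background, and the brightest such probe stood for its gene. Groups of 4 arrays came from the labels; array number limits the precision. The test was limma 3.58.1 (lmFit, eBayes, R 4.3.3) without covariates, and p-values were Benjamini-Hochberg adjusted across 22102 genes, with a threshold of 0.05. Tables and figures were made with Python 3.11.15, pandas 2.3.3, numpy 2.4.6 and matplotlib 3.10.9. The fit was tested on simulated data.

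Members, lists and the naming rule were all chosen with earlier results of these data known. Values on each array are given for the 12 largest changes among tested members and for members with a well-known role; a member well above background on all 4 arrays of 1 group and none of the other would have been added, and there was none. In the other lists the largest called change in each direction is named. CRK19, RBOHD, FLS2, BAK1, PR1, PR2, the other salicylate genes set beside their split and the genes beside the cluster were named after their values were seen. Alternatives were quantile, median and spike-in scaling, normexp with an offset of 50 or on 153 negative-control spots, the authors' table, no filter, a filter on all 8 arrays, averaging the probes of a gene, a trended and robust eBayes, a replicate block, leaving out each array, and another detection flag. Sequences of probes, promoters and proteins were not used here.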

Additional observations from a re-analysis of the deposited data

Results flagged for a closer look

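Each group of 4 arrays was examined for a single array far from the other 3, relative to the whole range, in each of the 38 tested CRK genes. Of 76 such groups, 4 had one. Chance alone gives about 1 in 20, so the number found is near what chance gives and the 4 are listed as a description. In CRK11 the wild-type array of replicate 3 stood at 0.65, under the next lowest at 1.33. In CRK14 the same array stood at 0.39, under the next lowest at 1.19. In CRK12 the mutant array of replicate 4 stood at 1.15, above the next highest at 0.94. In CRK42 the wild-type array of replicate 2 stood at -1.14, above the next highest at -1.43.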

How the results depend on the processing

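Of 25 called CRK genes, 8 kept direction and call under all 20 alternatives and 13 under all but normexp with an offset of 50. Against 23 that rose and 2 that fell, normexp with an offset of 50 gave 11 and 1, and medians of 0.23 over all members and 0.096 outside the cluster. It ran on median spot signals, as no mean signal was at hand, and its fitted background mean was -934, -1158 and -599 on wild-type replicates 2, 3 and 4. It turned CRK3 to 0.054, CRK26 to -1.20, CRK27 to -0.23, CRK31 to -9.95e-04, CRK37 to -0.96 and CRK38 to -0.23. Spike-in scaling gave 16 and 1, a median outside the cluster of 0.36 and -0.020 for CRK12. The number that fell was 1 under median scaling and normexp on negative controls. CRK17 turned to 0.026 under median scaling and to 0.57 with the mean of its probes. The cause was not tested.

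Leaving out 1 array, 18 to 26 CRK genes rose and 1 to 3 fell. Over all genes 5737 to 6758 rose and 5018 to 5664 fell in these fits. Medians were 0.53 to 0.58 over all members, 0.49 to 0.78 in the cluster, where 9 to 13 rose, and 0.48 to 0.59 outside it. Changes that crossed 0 ranged from -0.61 to 0.26 for CRK4, from -0.039 to 0.18 for CRK12, from -0.099 to 0.034 for CRK17 and from -0.0095 to 0.20 for CRK18. The scanner software marked 3 arrays for evaluation (mutant replicate 4, wild-type replicates 1 and 2). Without them, an alternative chosen after seeing the data, 21 rose and 0 fell by limma (23 and 1 at an unadjusted p under 0.05). Of all 22224 genes tested in that fit, 4626 rose and 4184 fell, and the shares at the unadjusted limit were not counted. The cluster median was 1.05, CRK4 was 0.061 and CRK17 0.014. Same-numbered arrays of the groups did not deviate together across genes (correlations of -0.28 to 0.17). These values show no pairing by number, but cannot tell whether replicates were grown or harvested in pairs. With the replicate block, 20 rose, 10 of them in the cluster, and 3 fell, CRK13 (-0.47) now among them. Medians were unchanged at 0.56 over all members, 0.63 in the cluster and 0.48 outside it. Over all genes 6093 rose and 5245 fell, against 6678 and 5671. Slide and scan could not be fitted as blocks, since each holds 1 group. With the positive-and-significant flag 40 members would be detected on all 8 arrays.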
